A study of Mus musculus with 72 samples.

Results

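Dopamine receptors and the genes that mark striatal projection neurons were followed across heart and brain of Gnb5 mutant mice. The group holds 6 of the 53715 gene identifiers in the count files, chosen by name: the receptor genes Drd1, Drd2, Drd4 and Drd5, the signalling gene Ppp1r1b and the adenosine receptor gene Adora2a. The libraries came from 18 male mice on a C57BL/6J background, aged 18 weeks, 6 each of Gnb5-/-, Gnb5+/- and Gnb5+/+. In the mutant allele, exon 3 of Gnb5 is deleted in the germline, so every cell carried the deletion, and all mice came from 1 line rederived by in vitro fertilisation from cryopreserved sperm. Atria and ventricles, left and right sides together, were profiled in the 3 genotypes, and cerebellum, hippocampus and cerebral cortex in Gnb5-/- and Gnb5+/+ mice, which gave 72 libraries in 12 groups of 6. The mouse numbers in the labels tie the tissues of 1 animal to each other, so the 6 libraries of a group are 6 mice. The striatum was not among the tissues, and the cortex was taken whole.

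Dopamine acts on receptors of 2 classes. The D1 class, encoded by Drd1 and Drd5, couples to stimulatory G proteins and raises cyclic AMP, and the D2 class, which includes the products of Drd2 and Drd4, couples to inhibitory Gi and Go proteins. Gnb5 encodes Gβ5, which is needed for the stability of the R7 family of RGS proteins, and these speed up the end of Gi and Go signals, with RGS9 acting on D2 receptor signalling in the striatum. In the striatum, neurons of the direct pathway carry Drd1 and those of the indirect pathway carry Drd2 and Adora2a, which encodes an adenosine receptor. Both types contain DARPP-32, the product of Ppp1r1b, an inhibitor of protein phosphatase 1 when it is phosphorylated by protein kinase A. In peripheral tissue, dopamine receptors are known from sympathetic nerve endings, vessels and neuroendocrine cells.

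In the GRCm38 annotation, Drd1 (ENSMUSG00000021478) lies on the minus strand at chr13:54051183-54055705. The other 5 lie on the plus strand: Drd2 (ENSMUSG00000032259) at chr9:49340627-49408177, Drd4 (ENSMUSG00000025496) at chr7:141292006-141296464, Drd5 (ENSMUSG00000039358) at chr5:38319367-38322518, Ppp1r1b (ENSMUSG00000061718) at chr11:98348404-98357796 and Adora2a (ENSMUSG00000020178) at chr10:75316877-75334784. Drd2 and Gnb5 share chromosome 9, at a distance of 25.9 Mb. The exons of Drd5 overlap the antisense gene Gm26560 by 1531 bases, and those of Ppp1r1b overlap 1700003D09Rik on the minus strand by 460 bases. The libraries were stranded, but the strand setting of the counting is not given in the sources used here, so reads of these overlaps cannot be assigned with certainty. The 250 bases before the RefSeq start of both D2-class receptor genes among the 6 are shown, since 1 of them was detected in every heart library and the other was almost absent from the heart. They are written 5′ to 3′ on GRCm38.p6, and capitals mark GC boxes, GGGCGG on either strand.
Drd2, chr9:49340153-49340402, plus strand: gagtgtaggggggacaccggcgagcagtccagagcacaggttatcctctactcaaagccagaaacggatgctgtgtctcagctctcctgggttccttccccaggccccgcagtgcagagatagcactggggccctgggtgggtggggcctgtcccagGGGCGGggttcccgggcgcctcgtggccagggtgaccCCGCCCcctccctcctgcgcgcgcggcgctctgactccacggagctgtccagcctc
Drd4, chr7:141291768-141292017, plus strand: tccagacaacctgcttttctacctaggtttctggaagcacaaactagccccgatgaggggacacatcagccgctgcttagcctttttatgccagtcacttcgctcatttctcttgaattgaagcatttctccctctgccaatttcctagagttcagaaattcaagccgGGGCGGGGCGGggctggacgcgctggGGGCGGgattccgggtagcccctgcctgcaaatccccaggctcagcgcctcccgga
The window of Drd2 had a GC content of 68.8% and held 2 GC boxes, and that of Drd4 had 56.8% and held 3, of which 2 overlap each other. Over the 32851 windows of 250 bases given by RefSeq for 27025 genes, the median GC content was 52.4% and 32.7% held a GC box. Neither window held the cyclic AMP response half-site TGACG on either strand, found in 17.8% of windows, nor the E-box CACGTG, found in 6.02%. Windows were matched for 4 of the 6 genes, and the letters are a description of these windows only.

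The depth was between 29204390 and 48807435 reads on genes, and its median over libraries was 38864900. Levels are given as CPM, counts per 1000000 reads of a library size scaled by TMM within each tissue. The genes were ranked within a tissue only per kilobase of exon, and ratios of 2 genes in cortex are of plain CPM. The targeted gene matched the labels in the 72 libraries. Gnb5 fell from a mean of 29.7 CPM in Gnb5+/+ atria to 15.5 in Gnb5+/- and 1.84 in Gnb5-/- atria, from 18.3 to 9.52 and 0.934 in ventricles, and from 148 to 20.7 in cerebellum, 99.5 to 12.8 in hippocampus and 136 to 15.96 in cortex between Gnb5+/+ and Gnb5-/- mice. Atrial muscle genes summed to between 23655 and 39961 CPM in atria and between 86.1 and 300 CPM in ventricles, and cortical projection neuron genes to between 2099 and 2718 CPM in cortex. Ventricular muscle genes summed to between 8314 and 9743 CPM in ventricles, apart from 13660 CPM in mouse 4 of Gnb5+/-. In atria they summed to between 142 and 1298 CPM in Gnb5+/+ mice. The range was 101 to 676 CPM in Gnb5+/- and 161 to 466 CPM in Gnb5-/- mice. The ventricular library of mouse 4 entered the estimate of the spread shared by the 3 genotypes. It was not left out singly from the comparison of Gnb5-/- with Gnb5+/+ ventricles. A pair of Gnb5-/- cortical libraries, mice 14 and 3, stood apart with 6.86% and 8.32% of unique reads outside genes against 13.1% to 15.6% in the other 10. They were singled out, after the data were seen, by their low Pde10a, a striatal phosphodiesterase gene of the striatal list used for the cortex, at 21.7 and 109.6 CPM against 176 to 359 CPM in the other 10. The cortical correlations, spreads and fold changes are repeated without them. In cerebellum the lowest share of unique reads outside genes was 8.025%, against a median of 16.2%. Cerebellar correlations are not repeated without that library.

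The tissues differed in which receptor they carried. The cortex had the highest Drd1, Drd2, Ppp1r1b and Adora2a levels, the hippocampus the highest Drd5 and the cerebellum the highest Drd4. In the heart, Drd2 and Adora2a were present in all 36 libraries, Drd1 was low, Drd4 had 0 to 2 counts per library and Drd5 had none.

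**Figure D1:**
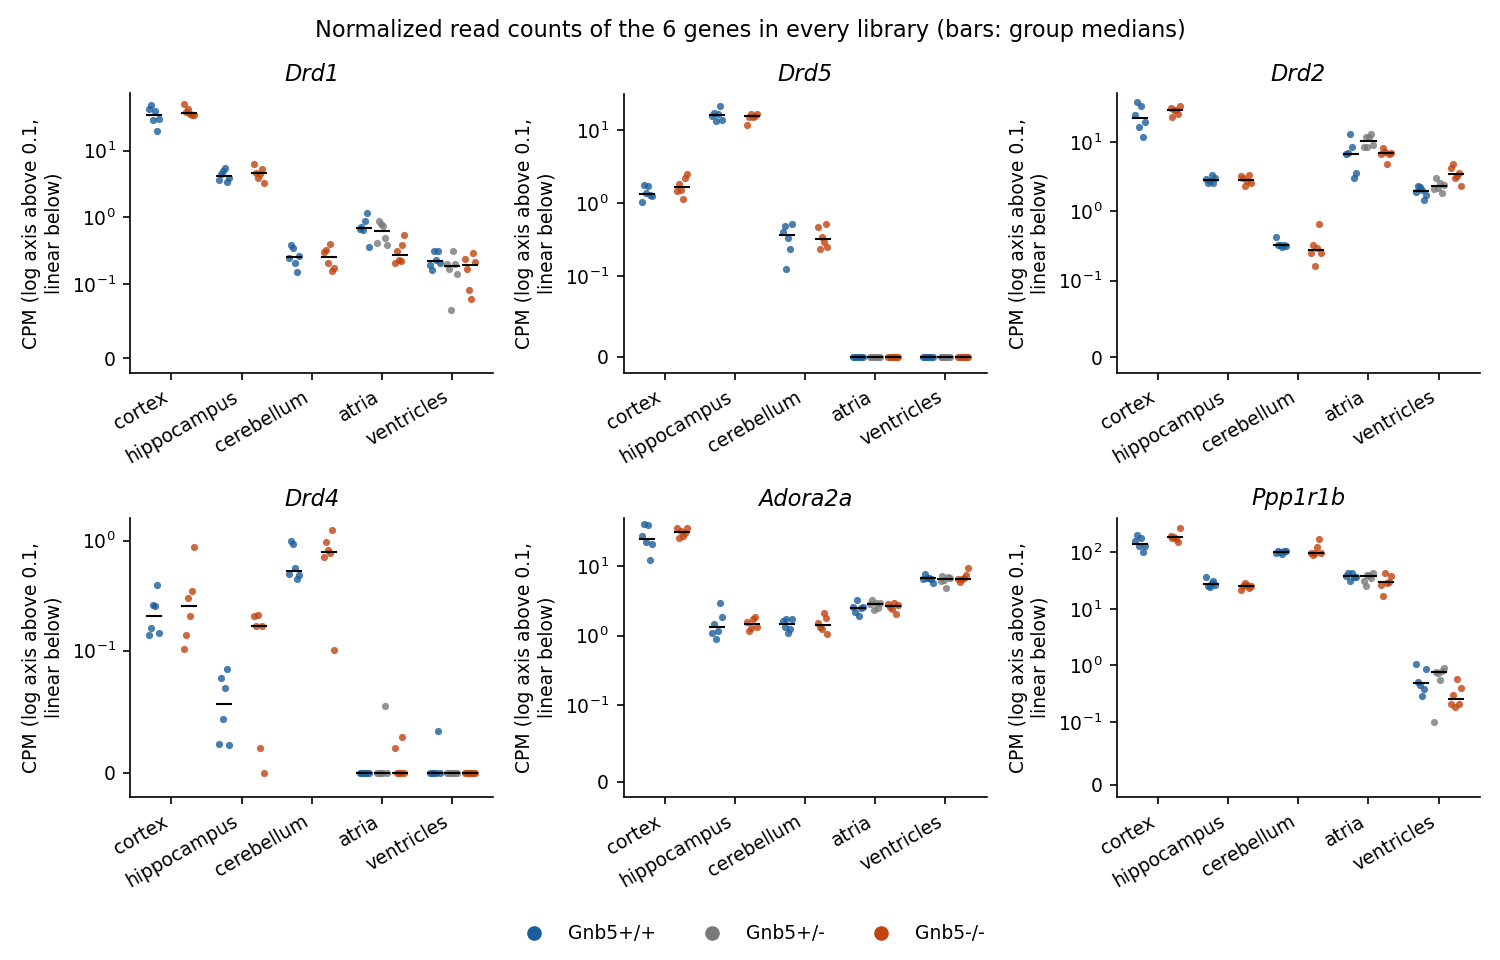
Level of each of the 6 genes in every library, by tissue and genotype. The vertical axis is CPM, logarithmic above 0.1 and linear below it, points are mice and bars are group medians of 6. The cortex is highest for Drd1, Drd2, Ppp1r1b and Adora2a, the hippocampus for Drd5 and the cerebellum for Drd4, and Drd5 sits at 0 in all heart libraries.

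In Gnb5+/+ mice, neighbouring tissues in the order of each gene were compared within mice with an exact permutation test (two-sided, on log2 CPM), in which 6 pairs allow no p below 0.0312. Of the 24 pairs of neighbours 4 were not tested, because the lower tissue had 3 or fewer counts over its 6 libraries. Of the other 20, 17 had the smallest p that 6 pairs allow, which adjusts to 0.0368 with this number of pairs at that p. The 3 that did not pass were Drd1 between cerebellum and ventricles (adjusted exact permutation p 0.691), Adora2a between cerebellum and hippocampus (1.00) and Ppp1r1b between cortex and cerebellum (0.0694), where 5 of 6 mice were higher in cortex. Unpaired, cortical over cerebellar Ppp1r1b did pass (adjusted exact permutation p 0.0102). It also passed paired with 1 TMM scaling over the 72 libraries (adjusted exact permutation p 0.0391), with 6 of 6 mice higher in cortex. In Gnb5-/- mice 12 of the 20 had the smallest p that 6 pairs allow, which adjusts to 0.0521, so that none could pass. With an unpaired exact permutation test 13 of 20 passed in Gnb5-/- and 18 of 20 in Gnb5+/+ mice. With 1 TMM scaling over the 72 libraries, 16 of 20 passed and heart levels moved up, so that ventricles ranked above hippocampus for Drd2 and above cerebellum for Drd1. Under that scaling cortical Drd2 over atria and cortical Adora2a over ventricles each held in 5 of 6 mice and no longer passed (adjusted exact permutation p 0.0658). The order of hippocampus and cerebellum by mean log2 level of Adora2a also turned, and under neither scaling did these neighbours differ beyond their spread.

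Per kilobase of exon, Ppp1r1b was the highest of the 6 genes in Gnb5+/+ cortex, at 51.2 ± 13.2 CPM per kb (SD, n = 6). Drd1 followed at 9.59 ± 2.91, Drd2 at 9.35 ± 3.94 and Adora2a at 8.85 ± 3.60, and these 3 differed by less than the spread between mice. Drd5 had 0.443 ± 0.0911 and Drd4 0.0667 ± 0.0292 CPM per kb. In Gnb5+/+ atria the order was Ppp1r1b at 13.02 ± 1.59, Drd2 at 2.73 ± 1.42, Adora2a at 0.817 ± 0.143 and Drd1 at 0.203 ± 0.0728 CPM per kb. In Gnb5+/+ ventricles Adora2a led with 2.18 ± 0.222, ahead of Drd2 at 0.762 ± 0.123 and Ppp1r1b at 0.204 ± 0.106 CPM per kb.

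Among the D1-class genes, Drd1 was the only one detected in the heart. In atria its lowest, median and highest level was 0.361, 0.691 and 1.15 CPM in Gnb5+/+ mice, 0.386, 0.618 and 0.895 CPM in Gnb5+/- mice and 0.204, 0.272 and 0.553 CPM in Gnb5-/- mice. These levels rest on 12 to 44, 14 to 37 and 8 to 21 counts per library. All 6 Gnb5-/- mice were below the Gnb5+/+ mean, but the groups overlapped, with mouse 18 of Gnb5+/+ inside the Gnb5-/- range. The fitted log2 fold change between Gnb5-/- and Gnb5+/+ atria was -1.22 (SE 0.32), which did not pass over the 16181 genes tested (edgeR quasi-likelihood adjusted p 0.174; DESeq2 0.0544; exact permutation p for the gene alone 0.00649). Against Gnb5+/- atria it was -0.98 (SE 0.32, edgeR adjusted p 0.735). In ventricles Drd1 had 2 to 10 counts per library and was dropped for low counts, so no test was made.

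Drd5 had 0 counts in all 36 heart libraries, which allows at most 0.102 CPM in the shallowest library (3 counts, counting error only). In the hippocampus its lowest, median and highest level was 13.4, 16.2 and 21.4 CPM in Gnb5+/+ mice and 11.7, 15.5 and 16.7 CPM in Gnb5-/- mice. The groups overlapped, and the log2 fold change was -0.11 (SE 0.11, edgeR adjusted p 0.857). Hippocampal Drd1 ranged from 3.36 to 5.59 CPM in Gnb5+/+ and from 3.26 to 6.22 CPM in Gnb5-/- mice, with a log2 fold change of 0.09 (SE 0.16, edgeR adjusted p 0.923). In the cerebellum both genes stayed low, at means of 0.268 ± 0.0869 CPM for Drd1 and 0.347 ± 0.148 CPM for Drd5 in Gnb5+/+ mice. Their cerebellar log2 fold changes were -0.02 (SE 0.30) and 0.0065 (SE 0.33). Cortical Drd5 was lower than hippocampal Drd5, with a lowest, median and highest level of 1.02, 1.32 and 1.76 CPM in Gnb5+/+ and 1.12, 1.66 and 2.46 CPM in Gnb5-/- mice, and the groups overlapped.

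Of the 6 genes, Drd2 was the only one called in any of the 9 comparisons of genotypes, and only in ventricles between Gnb5-/- and Gnb5+/+ mice. There 1 of 3 genes that passed the filter was called against 0.188% of all genes tested. The paper had already reported higher Drd2 in Gnb5-/- ventricles, and the 6 genes were chosen with earlier results of these data known. The share of 1 in 3 is therefore not independent of that choice. In Gnb5+/+ mice the lowest, median and highest ventricular level of Drd2 was 1.45, 1.97 and 2.28 CPM. It was 1.83, 2.28 and 3.05 CPM in Gnb5+/- mice and 2.31, 3.42 and 4.76 CPM in Gnb5-/- mice. The counts behind these levels were 42 to 97, 55 to 90 and 100 to 158 per library. Gnb5-/- and Gnb5+/+ mice did not overlap, although the lowest Gnb5-/- mouse (mouse 14) and the highest Gnb5+/+ mouse (mouse 8) were close, and Gnb5+/- mice overlapped both. The group means were 1.94 ± 0.314, 2.35 ± 0.424 and 3.52 ± 0.860 CPM (SD, n = 6).

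**Figure D2:**
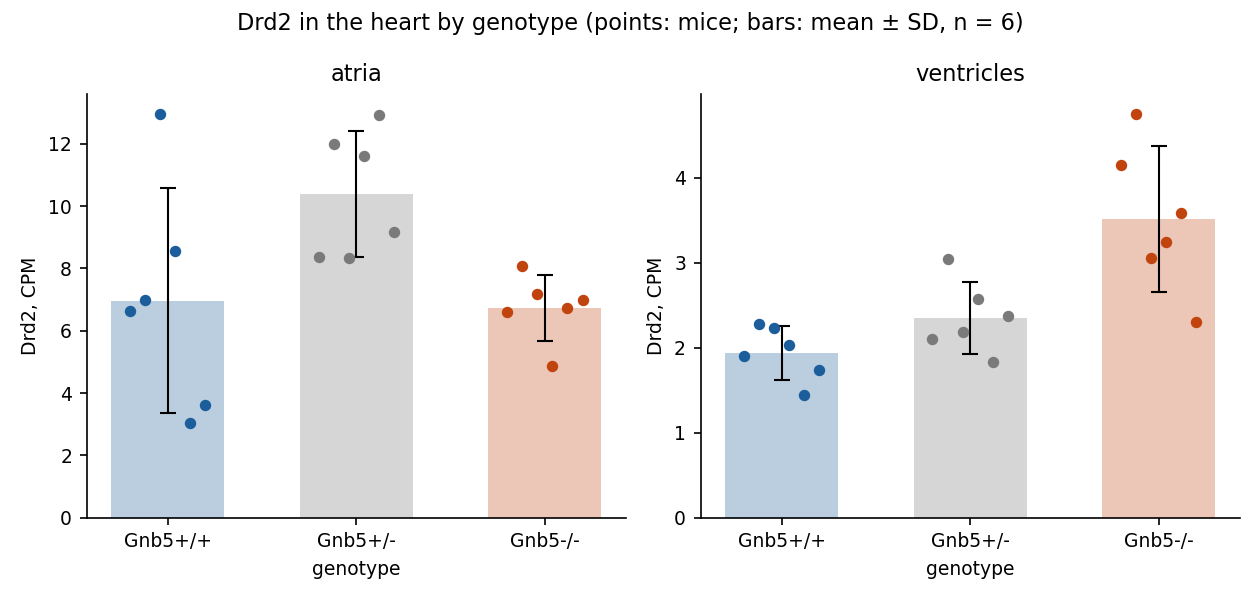
Drd2 level in CPM in atria and ventricles of the 3 genotypes, with bars for the mean, error bars for the SD of 6 mice and points for single mice. Ventricular levels step up from Gnb5+/+ (mean 1.94) over Gnb5+/- (2.35) to Gnb5-/- (3.52), while the atrial mean is highest in Gnb5+/- (10.4) and close to equal in Gnb5+/+ (6.96) and Gnb5-/- (6.74).

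The log2 fold change between Gnb5-/- and Gnb5+/+ ventricles was 0.85 (SE 0.17), a fold of 1.804, with an edgeR adjusted p of 0.0398. The exact permutation p for the gene alone was 0.00216, the smallest that 6 mice against 6 can give. The call was close to its threshold. The adjusted p was 0.00141 with DESeq2 and between 0.0350 and 0.0823 under 6 other settings, and the call was lost with no filter on low counts (0.0507), with a replicate block (0.0727) and with only the 2 genotypes compared (0.0823). Leaving out 1 library at a time kept the log2 fold change between 0.75 and 0.95 but kept the call only without mouse 14 of Gnb5-/- (0.0104) and without mouse 15 of Gnb5+/+ (0.0396), with adjusted p between 0.0508 and 0.127 without each of the other 10.

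Against Gnb5+/+ ventricles, Gnb5+/- ventricles had a Drd2 log2 fold change of 0.27 (SE 0.18, edgeR adjusted p 0.965), and 0 of 3 genes were called against 0.0202% of all. Between Gnb5-/- and Gnb5+/- ventricles it was 0.58 (SE 0.17, edgeR adjusted p 0.326, exact permutation p 0.0152), with 0 of 3 called against 0.0874% of all. As a trend over the number of intact Gnb5 alleles, ventricular Drd2 fell by 0.43 on the log2 scale per allele (SE 0.085, edgeR adjusted p 0.0328), where 0.215% of all genes were called. With a replicate block the trend was -0.42 and lost its call (edgeR adjusted p 0.0662). Drd4, the other D2-class gene among those chosen by name, had 1 count in 1 ventricular library and 0 in the other 17.

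Atrial Drd2 was higher than ventricular Drd2 in the 18 mice but did not follow the same order of genotypes. Its lowest, median and highest level was 3.03, 6.81 and 12.96 CPM in Gnb5+/+ mice, 8.33, 10.4 and 12.9 CPM in Gnb5+/- mice and 4.86, 6.85 and 8.07 CPM in Gnb5-/- mice. Gnb5+/+ atria spread widely, from mouse 17 at the bottom to mouse 15 at the top, and covered the range of both other genotypes, whereas Gnb5+/- and Gnb5-/- atria did not overlap. Between Gnb5-/- and Gnb5+/+ atria the log2 fold change was -0.05 (SE 0.25, edgeR adjusted p 0.981), and 0 of 4 genes that passed the filter were called against 0.253% of all. DESeq2 also called 0 of them, and 1, Drd1, had an unadjusted p under 0.05, as did 8.15% of all genes. Gnb5+/- atria were higher than Gnb5+/+ atria by 0.58 (SE 0.25), which did not pass (edgeR adjusted p 0.667, exact permutation p 0.0606), with 0 of 4 called against 0.0124% of all. Between Gnb5-/- and Gnb5+/- atria the value was -0.63 (SE 0.25, edgeR adjusted p 0.977, exact permutation p for the gene alone 0.00216), with 0 of 4 called against 0.0494% of all. The trend per intact allele was 0.03 (SE 0.16, edgeR adjusted p 0.985), where 0.21% of all genes were called.

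The effect of Gnb5-/- on Drd2 was larger in ventricles than in atria when each mouse was compared with itself. Ventricular minus atrial log2 CPM averaged -0.94 ± 0.38 in Gnb5-/- and -1.66 ± 0.58 in Gnb5+/+ mice, a difference of 0.71 (exact permutation p 0.0303, 14 such differences tested over genes and pairs of tissues). In a joint fit with the mouse as a block the difference was 0.77 (SE 0.24, unadjusted p 0.00332), and it did not pass over the 16507 genes tested (edgeR adjusted p 0.758), where 0% of genes were called (640 at an unadjusted p under 0.05). Across the 18 mice, atrial and ventricular log2 CPM of Drd2 had a Pearson's r of 0.20 (permutation p 0.427) and a Spearman's rho of 0.02 (permutation p 0.948). Without the 2 mice farthest from the median atrial level r was -0.34 (permutation p 0.194). Within genotypes r was 0.88 in Gnb5+/+ (exact permutation p 0.0236), 0.18 in Gnb5+/- (0.732) and 0.24 in Gnb5-/- mice (0.639), so the relation did not hold in each genotype. Centred on each genotype's mean, r was 0.46 (permutation p 0.055) and rho 0.48 (permutation p 0.0469), and r was 0.28 without the 2 farthest mice (permutation p 0.289).

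In heart tissue, Drd2 RNA may come from several cell types, and in bulk samples fewer cells of a type and less RNA per cell cannot be told apart. Genes of autonomic neurons, Schwann cells and adrenal chromaffin cells were therefore read beside it. In ventricles the autonomic list summed to between 40.2 and 79.5 CPM in Gnb5+/+, 48.2 and 87.0 in Gnb5+/- and 35.0 and 61.1 in Gnb5-/- mice. Chat and Slc18a3, defining genes of cholinergic neurons, were at 0 in every ventricular library, and Th, which encodes the rate-limiting enzyme of catecholamine synthesis, was at 0 in Gnb5+/+ and Gnb5+/- ventricles and had 1 count each in 2 of 6 Gnb5-/- ventricles. Chga, which encodes chromogranin A of neuroendocrine granules, was likewise at 0 in Gnb5+/+ and Gnb5+/- and had 1 count in 1 Gnb5-/- ventricle. The Schwann cell list summed to between 9.76 and 14.6 CPM and the chromaffin list to between 1.97 and 7.29 CPM over the 18 libraries. The 5 of 14 autonomic genes that passed the filter had log2 fold changes below 0 between Gnb5-/- and Gnb5+/+ ventricles, and edgeR and DESeq2 called 0 of them, with 1 at an unadjusted p under 0.05 (4.78% of all genes were). Over the 18 ventricular libraries the mean log2 CPM of the list's tested genes had a Pearson's r of 0.0062 with Drd2 (permutation p 0.980; rho 0.02, permutation p 0.948), and of 0.65 once both were centred on each genotype's mean (permutation p 0.00353). For the Schwann cell list r was 0.45 and 0.57 after centring, and for chromaffin cells, with 2 genes, -0.05 and 0.59. None of the 16 lists read against ventricular or atrial Drd2 had an adjusted p under 0.05 without centring. The part of these cell types in the ventricular difference was not tested beyond these values.

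Of the genes within 1 Mb of Drd2 on chromosome 9, 12 to 15 were tested per comparison and 0 were called in any of the 9 by edgeR or DESeq2, with 0 to 3 per comparison at an unadjusted p under 0.05. Of all genes, edgeR called 0.0124% to 0.253% in these comparisons, and 4.78% to 8.79% had an unadjusted p under 0.05. Between Gnb5-/- and Gnb5+/+ ventricles their log2 fold changes ran from -0.94 (SE 0.46, Rpl10-ps3) to 0.48 (SE 0.23, Gm5617), with 5 higher and 7 lower. The nearest tested gene, Ttc12, 28.8 kb away, had 0.05 (SE 0.086), and Ncam1, a neural cell adhesion gene 94.0 kb away, had 0.47 (SE 0.18, unadjusted p 0.0197, edgeR adjusted p 0.841).

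Adora2a and Ppp1r1b were highest in opposite parts of the heart. Adora2a had means of 6.68 ± 0.679, 6.34 ± 0.857 and 7.12 ± 1.29 CPM in Gnb5+/+, Gnb5+/- and Gnb5-/- ventricles, against 2.502 ± 0.439, 2.79 ± 0.329 and 2.60 ± 0.331 CPM in atria. Its log2 fold changes between Gnb5-/- and Gnb5+/+ were 0.05 (SE 0.14) in atria and 0.09 (SE 0.12) in ventricles, both with overlapping groups. Ppp1r1b was an atrial gene in the heart, with means of 38.1 ± 4.64, 35.9 ± 6.59 and 30.6 ± 9.20 CPM in atria against 0.597 ± 0.309, 0.644 ± 0.289 and 0.315 ± 0.156 CPM in ventricles. In ventricles it had 3 to 34 counts per library, and all but 1 Gnb5-/- mouse were below the Gnb5+/+ mean. Its ventricular log2 fold change was -0.90 (SE 0.41), which did not pass (edgeR adjusted p 1.00, exact permutation p 0.0584), and its atrial one was -0.32 (SE 0.17, edgeR adjusted p 0.681, exact permutation p 0.0909). Over the 18 ventricular libraries, Ppp1r1b had a Pearson's r of 0.83 with the mean log2 CPM of 5 atrial muscle genes (permutation p 1e-05, the smallest that can be given; rho 0.82, permutation p 6e-05), and of 0.76 without the 2 libraries farthest from the median of that list (permutation p 0.00056). The atrial muscle genes summed to between 86.1 and 217 CPM in Gnb5+/+, 88.1 and 300 CPM in Gnb5+/- and 119 and 252 CPM in Gnb5-/- ventricles. Their part in the ventricular Ppp1r1b values was not tested.

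In the cortex, Drd1, Drd2, Adora2a and Ppp1r1b rose and fell together from mouse to mouse. In Gnb5+/+ cortex the lowest, median and highest level was 19.9, 34.4 and 49.2 CPM for Drd1, 11.9, 21.9 and 38.1 CPM for Drd2, 12.1, 24.8 and 40.9 CPM for Adora2a and 100, 142 and 206 CPM for Ppp1r1b. Mouse 17 had the lowest and mouse 8 the highest level of all 4 genes, a range of 2.48-fold for Drd1, 3.19-fold for Drd2, 3.38-fold for Adora2a and 2.05-fold for Ppp1r1b. In Gnb5-/- cortex the range was narrower, with 34.6, 37.2 and 50.6 CPM for Drd1, 22.5, 29.1 and 32.7 CPM for Drd2 and 25.8, 30.9 and 35.3 CPM for Adora2a, and Ppp1r1b had 153, 184 and 273 CPM. Here the genes did not share an order: mouse 14 was lowest in Drd1 and highest in Drd2 and Ppp1r1b, and mouse 1 was highest in Drd1 and Adora2a. That example rests on mouse 14: without mice 14 and 3, mouse 1 was highest in all 4 genes and mouse 12 lowest in Drd1, Drd2 and Ppp1r1b, with mouse 10 lowest in Adora2a.

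**Figure D3:**
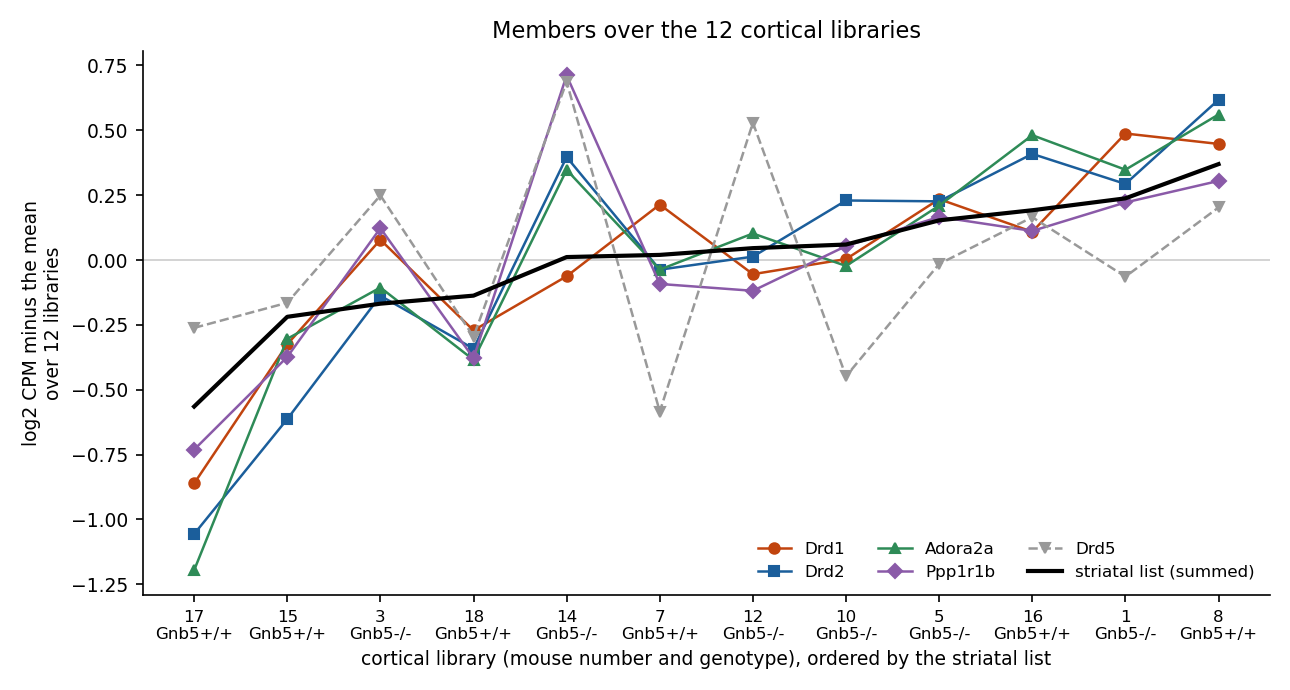
Log2 CPM of Drd1, Drd2, Adora2a, Ppp1r1b and Drd5 in the 12 cortical libraries, each as the difference from its mean over these libraries, with the summed level of 24 striatal projection neuron genes. Libraries are ordered along the horizontal axis by that summed level, and Drd1, Drd2 and Adora2a climb with it (r of 0.92, 0.94 and 0.95 with the log2 summed level) while Drd5 does not follow it (0.25).

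Over the 12 cortical libraries, Drd2 and Adora2a had a Pearson's r of 0.96 in log2 CPM (permutation p 1e-05, the smallest that can be given; adjusted over 15 pairs 0.00015; rho 0.97), and r was 0.94 without the 2 libraries farthest from the median Drd2. Drd1 had an r of 0.87 with Drd2 (adjusted permutation p 0.00156; rho 0.67), 0.88 with Adora2a (0.00156; rho 0.74) and 0.73 with Ppp1r1b (0.0226; rho 0.69). Ppp1r1b had 0.88 with Drd2 (0.0013; rho 0.82) and 0.86 with Adora2a (0.0013; rho 0.82). These are the 6 pairs among the 4 genes. By Pearson's r they were also the only 6 of the 15 pairs of members with an adjusted permutation p under 0.05. By rho, Drd1 with Drd2 and Drd1 with Ppp1r1b did not pass (adjusted permutation p 0.0511 each), and the other pairs of the 4 genes did. Leaving out the 2 farthest libraries, r was between 0.72 and 0.94 for 5 of the 6 pairs and 0.51 for Drd1 with Ppp1r1b (permutation p 0.133), so that this last relation rests on those libraries. It was also lost without mouse 17 of Gnb5+/+ (r 0.51, adjusted permutation p 0.194), mouse 15 (0.70, 0.0593) or mouse 18 (0.71, 0.0537). Drd5 and Drd4 did not share the pattern. The r of Drd5 with the 4 genes was between 0.16 and 0.58, and that of Drd4 between -0.45 and 0.19, and none passed.

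Within genotypes, the relation passed in Gnb5+/+ mice. Over the 6 Gnb5+/+ cortices r was 0.97 for Drd2 with Adora2a, 0.95 for Drd1 with Drd2, 0.94 for Drd1 with Adora2a, 0.96 for Drd1 with Ppp1r1b, 0.99 for Drd2 with Ppp1r1b and 0.98 for Ppp1r1b with Adora2a, with exact permutation p between 0.00139 and 0.00833. Within the 6 Gnb5-/- cortices it was 0.80 for Drd2 with Adora2a (exact permutation p 0.0639), 0.66 for Drd2 with Ppp1r1b, 0.62 for Ppp1r1b with Adora2a, 0.41 for Drd1 with Adora2a, 0.21 for Drd1 with Drd2 and -0.05 for Drd1 with Ppp1r1b, and none had an exact permutation p under 0.05. Whether the 2 genotypes differ in r was not tested. Without mice 14 and 3 of Gnb5-/-, the 10 other libraries gave an r of 0.96 for Drd2 with Adora2a, 0.92 for Drd1 with Drd2 and 0.96 for Drd1 with Ppp1r1b, and the same number of pairs, 6 of 15, passed.

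A list of 24 striatal projection neuron genes, none of them among the 6 genes, moved with the 4. Its summed level ran from 1267 to 2421 CPM in Gnb5+/+ cortex, lowest in mouse 17 and highest in mouse 8, and from 1667 to 2209 CPM in Gnb5-/- cortex. With the mean log2 CPM of its genes, r was 0.96 for Drd1 (adjusted over 6 genes, permutation p 0.00015; rho 0.94), 0.92 for Drd2 (0.00015; rho 0.80), 0.93 for Adora2a (0.00018; rho 0.87) and 0.71 for Ppp1r1b (0.018; rho 0.68). It was 0.22 for Drd5 and -0.36 for Drd4, with adjusted permutation p of 0.510 and 0.283. Without the 2 libraries farthest from the median of each gene, r was 0.91, 0.74, 0.74 and 0.84 for the first 4. That of Ppp1r1b was lost without mouse 17 of Gnb5+/+ (r 0.47, adjusted permutation p 0.217) and without mouse 15 (0.68, 0.0502), and without mice 14 and 3 of Gnb5-/- it was 0.96. Since these mice are low in Pde10a, the list was also read without that gene, which gave an r of 0.95 for Drd1, 0.95 for Drd2, 0.96 for Adora2a and 0.80 for Ppp1r1b over the 12 libraries. Within Gnb5-/- cortex, with the whole list, r was 0.82 for Drd1 (exact permutation p 0.0361), 0.39 for Drd2, 0.51 for Adora2a and -0.22 for Ppp1r1b. Of 17 lists of cell types and regions read against cortical Drd2, the striatal list was the only one with an adjusted permutation p under 0.05 (0.00102). A list of thalamic genes followed with an r of 0.75 (adjusted permutation p 0.0558), oligodendrocyte genes with 0.64 (0.135) and cortical projection neuron genes with 0.49 (0.241), and choroid plexus genes had -0.02.

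Between Gnb5+/+ mice the spread of these genes was wide for the tissue, and over the 6 Gnb5-/- mice it was not. Between Gnb5+/+ cortices, the median coefficient of variation was 35.5% for the 6 genes and 26.1% for the striatal list, against 11.8% for 14 cortical projection neuron genes and 9.35% for all genes tested. Between Gnb5-/- cortices it was 18.5% for the 6 genes and 29.2% for the striatal list, against 19.6% for the cortical neuron genes and 27.7% for all genes. Without mice 14 and 3, the 4 other Gnb5-/- cortices gave 14.3% for the 6 genes and 12.1% for the striatal list, against 6.88% and 9.01%. In plain CPM, the ratio of Drd2 to Adora2a, both of the indirect pathway, stayed between 0.721 and 1.06 over the 12 libraries. Its coefficient of variation was 9.28%. The ratio of Drd1 to Drd2 stayed between 1.06 and 1.78, with a coefficient of variation of 16.3%. These ratios are not scaled by exon length, so they describe how steady each ratio was and not which gene was higher. Cortical Drd2 had an r of -0.23 with the share of reads outside genes (permutation p 0.489) and of -0.26 with the reads counted on genes (permutation p 0.399). Carried-over striatal tissue and a change of these genes within cortex cannot be told apart here, since no striatal library and no record of the dissection border was read.

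The same relations were looked for in the other brain tissues. In hippocampus, Drd4 did not pass the filter. By Pearson's r, 0 of 10 pairs of members and 0 of 5 relations with the striatal list had an adjusted permutation p under 0.05. The r of Drd2 with Adora2a was -0.06. Drd1 with Drd2 had an r of 0.70 (adjusted permutation p 0.114), and its rho of 0.77 passed (0.0494). Drd1 with the striatal list had an r of 0.90 within Gnb5+/+ (exact permutation p 0.00972) and 0.33 within Gnb5-/- hippocampus (0.528). In cerebellum 0 of 15 pairs and 0 of 6 relations passed, and r of Drd2 with Adora2a was 0.42. Whether the relations differ between tissues was not tested. The summed striatal list was lower there, at 790 to 951 CPM in hippocampus and 485 to 634 CPM in cerebellum.

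The genes most like Drd2 over the 12 cortical libraries, by Pearson's r of log2 CPM centred on each genotype's mean and over 17946 genes, were Adora2a (0.96), Rgs9 (0.94), Syndig1l (0.93), Slc17a8 (0.93) and Ptpn7 (0.92). Rgs9 encodes the R7 RGS protein of the striatum, and Slc17a8 the vesicular glutamate transporter VGLUT3. For Adora2a they were Drd2 (0.96), Slc17a8 (0.94), Rgs9 (0.93), Ptpn7 (0.90) and Cenpp (0.90). All 24 genes of the striatal list had an r above 0 with Drd2, with a median of 0.59, and 10 were among the first 100 genes. For Adora2a 12 were. In the heart the likeness was of another kind. Over the 18 ventricular libraries the genes most like Drd2 were Prss55 (0.80), 2310002D06Rik (0.77), Tgfa (0.76), Moxd1 (0.75) and Cxcl14 (0.74), and over the 18 atrial libraries Bbs4 (0.87), Pla2g2d (0.87), Hdac8 (0.84), Ttc12 (0.83) and Lrrc17 (0.82). Of the striatal list, 0 of 13 genes were among the first 100 in ventricles and 1 of 14 in atria. These r are descriptions over libraries that share their scaling, and the genes were ranked on the data.

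Between Gnb5-/- and Gnb5+/+ cortex, 0 of the 6 genes were called by edgeR or DESeq2, and 0 had an unadjusted p under 0.05, against 0.0557% of all genes called and 7.39% at an unadjusted p under 0.05. The log2 fold changes were 0.18 (SE 0.19) for Drd1, 0.24 (SE 0.24) for Drd2, 0.49 (SE 0.49) for Drd4, 0.33 (SE 0.21) for Drd5, 0.37 (SE 0.18) for Ppp1r1b and 0.19 (SE 0.24) for Adora2a. All 6 lay above 0, with a median of 0.29 against 0.0058 over all genes, and their edgeR adjusted p were between 0.474 and 0.643. The interval of 2 SE ran from -0.25 to 0.72 for Drd2 and from 0.01 to 0.73 for Ppp1r1b. Ppp1r1b had means of 194 ± 41.2 CPM in Gnb5-/- and 150 ± 38.6 CPM in Gnb5+/+ cortex, and each of the 6 Gnb5-/- cortices exceeded the mean of the Gnb5+/+ cortices (exact permutation p 0.0693). Without mice 14 and 3 its log2 fold change was 0.24 (edgeR adjusted p 0.979), and the 6 values ran from 0.10 (Drd4) to 0.25 (Drd2) with a median of 0.22. These values depend on single libraries: leaving out 1 at a time, the log2 fold change ran from 0.063 to 0.31 for Drd1, from 0.10 to 0.42 for Drd2, from 0.039 to 0.35 for Adora2a, from 0.22 to 0.43 for Drd5, from 0.25 to 0.48 for Ppp1r1b and from -0.029 to 0.73 for Drd4.

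**Figure D4:**
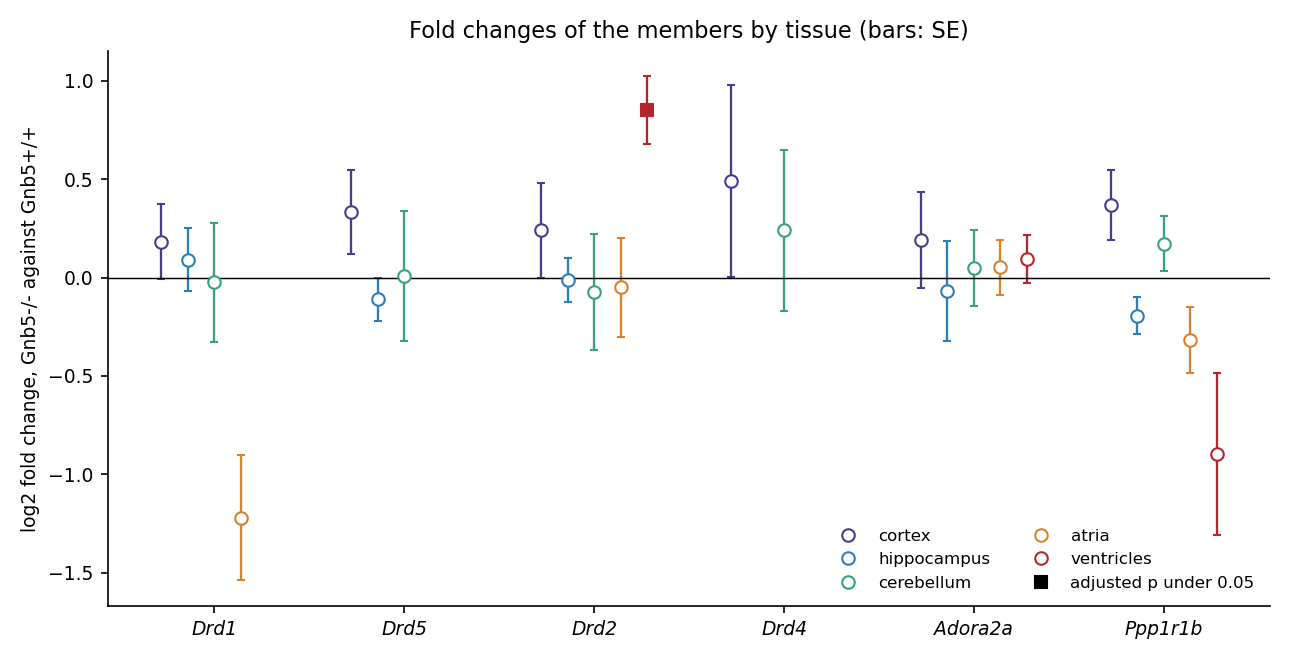
Log2 fold change between Gnb5-/- and Gnb5+/+ mice for each of the 6 genes in the tissues where it passed the filter on low counts, with error bars of 1 SE from edgeR. The filled square marks the single value with an adjusted p under 0.05, Drd2 in ventricles at 0.85, while the 6 cortical values lie between 0.18 and 0.49 with none called.

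In hippocampus 0 of 5 genes were called by edgeR or DESeq2 against 0.165% of all, with log2 fold changes between -0.19 (Ppp1r1b, SE 0.093) and 0.09 (Drd1). Hippocampal Drd2 had a mean of 2.88 ± 0.301 CPM in Gnb5+/+ and 2.86 ± 0.388 CPM in Gnb5-/- mice. In cerebellum 0 of 6 were called by either tool against 0.0817% of all, with log2 fold changes between -0.07 (Drd2, SE 0.29) and 0.24 (Drd4, SE 0.41). Drd4, at 0 to 9 counts per library, was not tested in hippocampus, and in cortex it had 4 to 24 counts. Cerebellar Drd4 had a lowest, median and highest level of 0.449, 0.530 and 0.992 CPM in Gnb5+/+ and 0.101, 0.794 and 1.24 CPM in Gnb5-/- mice, so that the Gnb5-/- mice enclosed the Gnb5+/+ range. Adora2a was low in both tissues, at 1.57 ± 0.753 and 1.48 ± 0.266 CPM in Gnb5+/+ and Gnb5-/- hippocampus and 1.47 ± 0.277 and 1.52 ± 0.397 CPM in cerebellum. The Gnb5-/- effect on Ppp1r1b differed between cortex and hippocampus by 0.57 when each mouse was compared with itself (exact permutation p 0.0238), and by 0.48 without mice 14 and 3 (exact permutation p 0.0810). In the joint fit it did not pass (0.57, SE 0.23, edgeR adjusted p 0.641), where 0% of genes were called (857 at an unadjusted p under 0.05), and the joint fit of cortex and cerebellum called none of the 6 genes against 0.0103% of all.

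No gene of the wider dopamine pathway was called by edgeR. Of 30 genes of dopamine synthesis, transport and receptor signalling outside the 6, between 23 and 30 were tested per tissue, and 0 were called in either direction between Gnb5-/- and Gnb5+/+ mice. At an unadjusted p under 0.05 there were 4 in atria, 3 each in ventricles, cerebellum and hippocampus and 1 in cortex. Of all genes, 8.15%, 4.78%, 5.85%, 7.7% and 7.39% had such a p in atria, ventricles, cerebellum, hippocampus and cortex, and 0.253%, 0.188%, 0.0817%, 0.165% and 0.0557% were called. DESeq2 called 1 of them, Gpr158 in atria, whose product holds RGS7 at the membrane and which is named because DESeq2 called it. It had 11.2 ± 3.16 CPM in Gnb5+/+, 11.6 ± 2.21 CPM in Gnb5+/- and 6.92 ± 1.51 CPM in Gnb5-/- atria, with an edgeR log2 fold change of -0.70 (SE 0.18, adjusted p 0.175) between Gnb5-/- and Gnb5+/+. The highest of the list in all 5 tissues was Gnas, which encodes the stimulatory Gs subunit, at 732 ± 32.7 CPM in Gnb5+/+ and 726 ± 54.2 CPM in Gnb5-/- atria. In cortex Gnao1, which encodes the Go subunit used by D2-class receptors, had 811 ± 13.8 CPM in Gnb5+/+ and 715 ± 165 CPM in Gnb5-/- mice. The striatal list gave 0 calls with edgeR and with DESeq2 of 14, 13, 14, 19 and 24 genes tested in atria, ventricles, cerebellum, hippocampus and cortex, with an unadjusted p under 0.05 for 0, 3, 2, 5 and 3, to be read against the same shares of all genes. Its median log2 fold change was 0.20 in cortex, with 16 genes higher and 8 lower, against 0.0058 over all genes. Without mice 14 and 3 it was 0.14, with 23 higher and 1 lower and 0 called. These mice were singled out by low Pde10a, a gene of this list, so the shift in the count is not independent of that choice. The genes of the list were also read in the same mice, so they are not separate observations.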

How the data were processed

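RNA-seq read counts of 72 libraries, 12 groups of 6 mice set by tissue and genotype in the labels, were taken as deposited. Per the study's methods, the authors made stranded single-end total RNA libraries, trimmed reads with Cutadapt 1.8, removed contaminant reads, aligned to GRCm38 with STAR 2.5.3a and counted reads per Ensembl gene with htseq-count 0.9.1, so the deposited values are raw counts with no normalization. The strand setting of the counting is not given in the sources used here. The 5 rows per file that name no gene were left out of library sizes.

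Each tissue was scaled by TMM, genes of low count were dropped (filterByExpr, count minimum 10), and genotypes were compared by edgeR 4.0.16 quasi-likelihood tests in R 4.3.3, with 18 libraries per heart fit and 12 per brain fit and Benjamini-Hochberg adjustment over all genes tested. SE is the log2 fold change over the root of F, and genes were called at an adjusted p under 0.05. DESeq2 1.42.0 served as an alternative. Log2 CPM used a prior count of 2. Single genes were compared by two-sided exact permutation of mice, and correlations by 100000 permutations (exact within 6 mice), with scipy 1.17.1. The functions for the fits, correlations and permutation tests were tested on simulated data. Symbols came from GENCODE M21, which matched 53620 of 53715 identifiers, and promoter windows from RefSeq.

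The 6 genes and the marker and pathway lists were chosen with earlier results of these data known. Genes outside the 6 are named if called, among the 5 highest of their list in a tissue, within 1 Mb of Drd2 or among the 5 most like Drd2 or Adora2a, with exceptions stated. Same replicate numbers of different genotypes mark different mice, and deviations of same-numbered libraries had correlations from -0.242 to 0.147, so the main fits carry no replicate block. Alternatives were RLE scaling, other filters, robust empirical Bayes, a replicate block, fits of 2 genotypes only and leaving out each library. Limits from a count of 0 cover counting error only.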

Additional observations from a re-analysis of the deposited data

Results flagged for a closer look

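Of 63 groups of 6 libraries in which a gene's level varied, 7 held a library that lay apart from the other 5 by Dixon's test, against 3.15 that chance gives at 1 group in 20. In 2 of the 7, Drd4 in heart, a single library was above 0, so that any read lies apart, and without such groups it was 5 of 61 against 3.05. Drd2 stood out in cerebellum, at 0.424 CPM in mouse 7 of Gnb5+/+ (next 0.331) and at 0.648 CPM in mouse 12 of Gnb5-/- (next 0.322). Choroid plexus genes of that mouse 12 library summed to 925 CPM against 23.8 to 33.7 CPM in the other cerebella. The library also departed in oligodendrocyte genes (5568 against 2751 to 3924 CPM) and autonomic neuron genes (4640 against 2650 to 3081 CPM). Hippocampal neuron genes were low in it (110 against 277 to 387 CPM). The part of these differences in its Drd2 level was not tested. Drd4 stood out at 0.881 CPM in the cortex of mouse 14 of Gnb5-/- (next 0.347), and in the heart at 0.0547 CPM (2 counts) in the atria of mouse 11 of Gnb5+/- and at 0.0345 CPM (1 count) in the ventricles of mouse 17 of Gnb5+/+, where the other libraries of those groups had 0. Drd5 was low in the hippocampus of mouse 1 of Gnb5-/-, at 11.7 CPM (next 15.3). Ppp1r1b was high in the cortex of mouse 14 of Gnb5-/-, at 273 CPM (next 194), the mouse whose cortical library had 6.86% of unique reads outside genes.

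The Gnb5-/- effect differed between tissues of the same mice in 2 of 14 differences tested at an unadjusted exact permutation p under 0.05. For Drd2 it was larger in ventricles than in atria by 0.71 on the log2 scale (exact permutation p 0.0303, edgeR 0.77 with an adjusted p of 0.758). For Ppp1r1b it was larger in cortex than in hippocampus by 0.57 (exact permutation p 0.0238, edgeR 0.57 with an adjusted p of 0.641).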

How the results depend on the processing

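Of 244 values for the 6 genes under alternatives other than leaving out 1 library, 237 kept their direction and their side of the threshold, 3 lost a call and 4 changed sign. Of 456 with 1 library left out, 417, 10 and 29 did. The alternatives without mice 14 and 3 (Gnb5-/- replicates 3 and 5, singled out by low Pde10a), without Pde10a in the striatal list, with 1 TMM scaling over the 72 libraries and with libraries left out of the Gnb5+/- contrasts were chosen after seeing the data. Causes of the changes were not tested.

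The call of Drd2 in ventricles (log2 fold change 0.85) was lost with no filter on low counts (0.85, edgeR adjusted p 0.0507), with only the 2 genotypes compared (0.85, 0.0823) and with a replicate block (0.84, 0.0727), and without 1 library it ran from 0.75 to 0.95. The trend over alleles fell from -0.43 to -0.42 with the replicate block and lost its call (adjusted p 0.0662). With the replicate block the sign changed for Drd2 in atria (0.067 between Gnb5-/- and Gnb5+/+, trend -0.028) and Adora2a in hippocampus (0.012). The block changed no other call of the 6 genes, and 0 to 1 of 6 numbers had same-numbered libraries correlated over 0.1. Drd5 in cerebellum changed sign with DESeq2 (-0.000265) and with no filter (-0.00827). In Gnb5-/- mice 0 of 20 neighbouring tissues passed the paired test, against 17 in Gnb5+/+ mice, because the 12 at the smallest p of 6 pairs adjust to 0.0521, and 13 passed unpaired against 18. The r of Drd4 with Ppp1r1b in cortex turned from 0.188 to -0.447 without mice 14 and 3.

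Counts of all genes called between Gnb5-/- and Gnb5+/+ were 41, 28, 14, 29 and 10 in atria, ventricles, cerebellum, hippocampus and cortex, and 110, 63, 52, 110 and 36 with DESeq2. They were 5, 19 and 6 in cerebellum, hippocampus and cortex with the replicate block, 20 in atria with only the 2 genotypes compared, and in cortex 6 with at least 10 counts in every library and 26 without mice 14 and 3. Between Gnb5+/- and Gnb5+/+ they were 2 in atria (9 with DESeq2) and 3 in ventricles (1 with the 2 genotypes only, 0 with the block), and between Gnb5-/- and Gnb5+/- 8 in atria (27 with DESeq2, 13 with the 2 genotypes only) and 13 in ventricles (69 with DESeq2). Without 1 library the counts ran from 24 to 62, 17 to 41, 9 to 62, 21 to 37 and 8 to 22 between Gnb5-/- and Gnb5+/+ in the same order of tissues, from 2 to 6 in atria and 1 to 5 in ventricles between Gnb5+/- and Gnb5+/+, and from 7 to 10 and 7 to 23 between Gnb5-/- and Gnb5+/-.

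Without 1 library, the log2 fold changes that changed sign ran from -0.20 to 0.23 for Drd2 and -0.0092 to 0.14 for Adora2a in atria, -0.0052 to 0.15 for Adora2a and -0.036 to 0.35 for Ppp1r1b (Gnb5+/- against Gnb5+/+) in ventricles, -0.20 to 0.10 for Drd1, -0.39 to 0.063 for Drd2, -0.16 to 0.15 for Drd5 and -0.078 to 0.13 for Adora2a in cerebellum, -0.010 to 0.18 for Drd1, -0.059 to 0.038 for Drd2 and -0.19 to 0.20 for Adora2a in hippocampus, and -0.029 to 0.73 for Drd4 in cortex. The cortical r ran from -0.396 to 0.186 for Drd2 with Drd4, -0.477 to 0.470 for Drd4 with Ppp1r1b and -0.385 to 0.226 for Drd4 with Adora2a. The number of correlated pairs ran from 5 to 7, and that of Drd1 with Ppp1r1b was lost without Gnb5+/+ mouse 15 (adjusted permutation p 0.0593), 17 (0.194) or 18 (0.0537). A median under 20 counts per library limits Drd4 in all tissues but cerebellum, where 1 library had 4, Drd1 in Gnb5-/- atria, in ventricles and in cerebellum, Drd2 and Drd5 in cerebellum and Ppp1r1b in Gnb5+/+ and Gnb5-/- ventricles.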
